A study of Mus musculus with 11 samples.

Results

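The genes examined here are 10 that write, copy, oxidise or protect DNA methylation in the early mouse embryo: Dnmt1, Uhrf1, Dnmt3a, Dnmt3b, Dnmt3l, Tet1, Tet3, Dppa3, Zfp57 and Trim28. They were taken by name from the deposited table of 49585 genes, and each of the 10 had exactly 1 row. RNA was sequenced from C57BL/6 embryos made by injecting oocytes with round spermatids (ROSI) or with sperm (ICSI). The 11 libraries form 4 groups, which are 3 libraries of ROSI 2-cell embryos, 3 of ICSI 2-cell embryos, 2 of ROSI zygotes and 3 of ICSI zygotes. ROSI embryos alone were activated, with 5 mM SrCl2 in calcium-free CZB medium for 1 to 2 h, and all embryos were then held in KSOM. The kind of male germ cell and the activation treatment therefore cannot be told apart in any ROSI against ICSI comparison. The labels give no collection hour, no number of embryos per library and no batch, and nothing in them states that replicates came from separate matings or injections, so the p-values measure only the spread between these libraries.

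In mammals, 5-methylcytosine at CpG sites is copied after replication by the maintenance methyltransferase DNMT1, which is guided to hemimethylated DNA by UHRF1. DNMT3A and DNMT3B place new methylation, and DNMT3L is a catalytically inactive partner needed in the oocyte for maternal imprints. TET enzymes oxidise 5-methylcytosine, and the oocyte-supplied TET3 does this mainly to the paternal genome of the zygote. Imprinted regions have to keep their methylation through this period. DPPA3 (also called STELLA or PGC7) shields maternal chromatin from TET3, and the zinc-finger protein ZFP57 binds methylated imprint control regions and recruits TRIM28 (KAP1), a scaffold for repressive complexes.

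The proximal promoter sequences of 4 of these genes are given to show their CpG sites, the sequence in which DNA methylation is placed and copied. They are shown for Zfp57, which was lower in ROSI 2-cell embryos, for Trim28, whose product it recruits, and for Dnmt1 and Uhrf1, the maintenance pair. Each is the 250 bases before an annotated transcription start in RefSeq (build GRCm38.p6), read 5′ to 3′ on the gene's strand, with CG dinucleotides in capitals.
Zfp57, chr17:37000913-37001162, plus strand: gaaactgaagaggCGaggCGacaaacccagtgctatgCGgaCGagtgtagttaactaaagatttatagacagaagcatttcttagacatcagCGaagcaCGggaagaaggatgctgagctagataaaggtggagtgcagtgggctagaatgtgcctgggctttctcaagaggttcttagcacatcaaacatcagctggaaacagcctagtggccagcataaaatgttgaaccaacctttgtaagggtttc
Trim28, chr7:13023902-13024151, plus strand: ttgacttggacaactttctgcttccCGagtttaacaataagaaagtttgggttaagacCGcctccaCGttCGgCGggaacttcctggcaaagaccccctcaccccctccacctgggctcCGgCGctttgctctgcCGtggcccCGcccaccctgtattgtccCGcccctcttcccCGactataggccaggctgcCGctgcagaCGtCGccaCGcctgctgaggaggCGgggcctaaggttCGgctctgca
Dnmt1, chr9:20959889-20960138, minus strand: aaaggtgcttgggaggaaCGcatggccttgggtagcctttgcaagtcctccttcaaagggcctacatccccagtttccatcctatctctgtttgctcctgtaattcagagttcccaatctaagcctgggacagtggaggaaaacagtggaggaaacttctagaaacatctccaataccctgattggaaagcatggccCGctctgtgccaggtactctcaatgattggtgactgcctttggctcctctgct
Uhrf1, chr17:56304063-56304312, plus strand: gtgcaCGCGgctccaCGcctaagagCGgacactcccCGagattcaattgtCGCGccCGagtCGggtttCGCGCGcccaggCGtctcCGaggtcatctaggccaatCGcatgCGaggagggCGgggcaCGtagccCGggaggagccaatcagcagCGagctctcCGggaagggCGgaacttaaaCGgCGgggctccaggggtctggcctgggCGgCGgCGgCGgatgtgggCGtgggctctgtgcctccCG
The Zfp57 window shown, at the most upstream of its 3 annotated starts, held 6 CG dinucleotides, and the windows at its other starts held 7 and 3. The median over 32851 starts of 27025 genes was also 6. The Trim28 window held 17, and 23.5% of all starts had as many or more. The Dnmt1 window shown, at the most upstream of its 3 annotated starts, held 2, and the windows at its other starts held 7 and 26. The Uhrf1 window shown held 30, a number reached by 5.94% of starts, and the window at its other start held 10. The count thus varied widely between starts of 1 gene, and the windows printed were chosen among those that overlap no annotated exon. Of the 10 genes, 9 were in the promoter table, with 18 starts between them, and Dppa3 was not. Gene-level values do not show which start was used, and promoter methylation was not measured in these libraries.

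Values are TPM, transcript numbers corrected for transcript length and scaled to the same total in each library, so each is a gene's share of that library. A lower TPM can thus reflect less of a transcript or more of other RNA, and TPM does not show the amount of RNA per embryo. Differences were tested with limma on log2(TPM + 1) over the 21938 genes that reached 1 TPM in 2 or more libraries, and p-values were adjusted by the Benjamini-Hochberg method, with a threshold of 0.05. All 10 genes passed this filter. Each gene was given 1 spread over all 4 groups, though replicates varied more at the 2-cell stage. The median SD of log2(TPM + 1) between replicates was 0.232 in ROSI and 0.216 in ICSI 2-cell embryos. It was 0.136 in ROSI zygotes and 0.154 in ICSI zygotes. Intervals and p-values for 2-cell embryos thus rest in part on the closer zygote replicates. Fits of the 2-cell libraries alone are also given below. The log2(TPM + 1) scale understates changes of genes near 1 TPM, which among the 10 affects Tet1 in zygotes, and among the other genes named below Ahcy, Mbd1 and, in zygotes, Uhrf2. Recovered depths were 20.5 M to 23.0 M reads (M, 1e6) in ROSI 2-cell embryos, 8.48 M to 32.9 M in ICSI 2-cell embryos, 30.4 M and 85.9 M in ROSI zygotes, and 70.7 M to 83.0 M in ICSI zygotes. The smallest number of reads behind any value of the 10 was 104, for Dnmt3b in 1 ICSI 2-cell library.

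Together the 10 transcripts made up a far smaller share of the RNA at the 2-cell stage. They summed to 2316, 3085 and 3248 TPM in ROSI 2-cell embryos and 2982, 3441 and 3452 TPM in ICSI 2-cell embryos, against 8661 and 8337 TPM in ROSI zygotes. The sum in ICSI zygotes ran between 9587 and 10150 TPM. Most of it came from Dppa3 and Zfp57 in every group. Among 21303 protein-coding genes ranked by mean TPM, Dppa3 was 10th in ROSI 2-cell embryos, 11th in ICSI 2-cell embryos, 7th in ROSI zygotes and 3rd in ICSI zygotes. Zfp57 was 107th in ROSI 2-cell embryos, 63rd in ICSI 2-cell embryos, 12th in ROSI zygotes and 13th in ICSI zygotes.

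**Figure D1:**
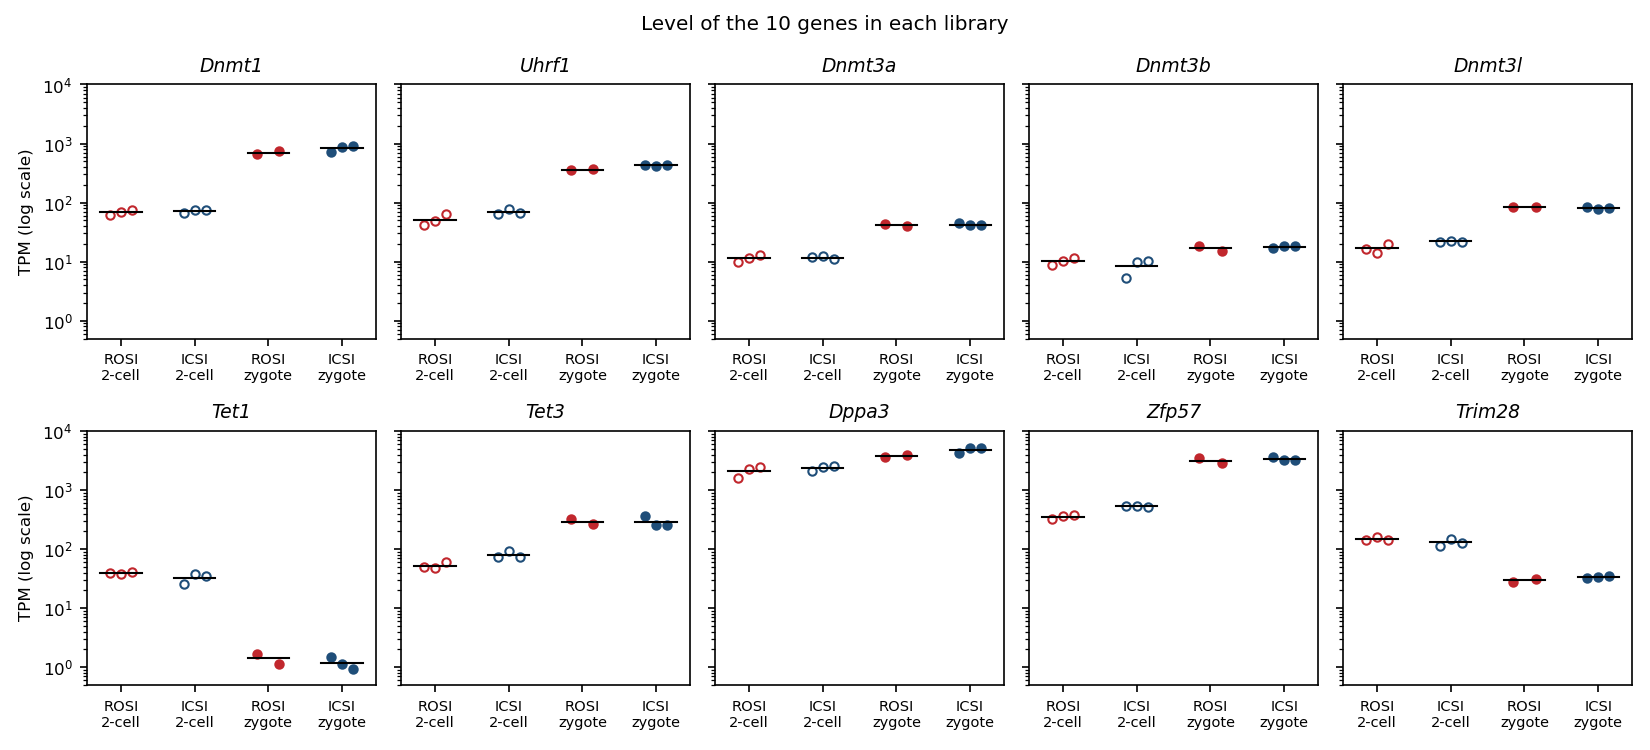
TPM of the 10 genes in each library on a log axis, for ROSI 2-cell embryos, ICSI 2-cell embryos, ROSI zygotes and ICSI zygotes; each point is 1 library (open at the 2-cell stage, filled in zygotes) and each line a group mean. Dppa3 stood at the top in all 4 groups, Tet1 and Trim28 were higher at the 2-cell stage, and the other 8 genes were lower there.

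The order of levels in zygotes was Dppa3, Zfp57, Dnmt1, Uhrf1, Tet3, Dnmt3l, Dnmt3a, Trim28, Dnmt3b and Tet1, after ROSI and after ICSI alike, and no neighbours in that order had overlapping libraries. At the 2-cell stage Trim28 came next after Dppa3 and Zfp57 in both groups. In ROSI 2-cell embryos it was followed by Dnmt1, Tet3, Uhrf1, Tet1, Dnmt3l, Dnmt3a and Dnmt3b. Libraries overlapped between Tet3 and Uhrf1, between Dnmt1 and Uhrf1 and between Dnmt3a and Dnmt3b. In ICSI 2-cell embryos Tet3, Dnmt1 and Uhrf1 followed Trim28 with overlapping libraries, and then came Tet1, Dnmt3l, Dnmt3a and Dnmt3b.

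The comparison of 2-cell embryos with zygotes asks how the levels of these transcripts changed over the first cleavage. It does not separate transcripts kept from the oocyte from newly made ones. A share of the zygote mean said below to be left or to remain is a ratio of mean TPM. Protein-coding genes together held 44.63% to 51.39% of TPM in 2-cell libraries, against 65.88% to 71.54% in zygote libraries. All 10 passed the test after ROSI, 2 higher and 8 lower, as did all 10 after ICSI, again 2 higher and 8 lower. Over all genes tested, 67.9% passed after ROSI (35.6% higher, 32.3% lower) and 68.1% after ICSI (33% higher, 35% lower), so passing was the common outcome at this step. No library of 1 stage overlapped the other stage for any of the 10, and the same held for 76.1% of all genes after ROSI and 72.2% after ICSI. The median difference of the 10 was -2.03 after ROSI and -1.80 after ICSI, beside 0.19 and 0.00 over all genes (log2). The genes lower at the 2-cell stage were those of maintenance and de novo methylation together with Tet3, Dppa3 and Zfp57.

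In maintenance methylation, Dnmt1 (chromosome 9, 20907209 to 20959888, minus strand, mm10) had 61.2, 69.8 and 75.5 TPM in ROSI 2-cell embryos, against 657 and 740 TPM in ROSI zygotes. It had 67.6, 74.3 and 73.8 TPM in ICSI 2-cell embryos, against 720, 865 and 898 TPM in ICSI zygotes. Every 2-cell library lay below every zygote library, and 9.86% of the zygote mean was left after ROSI and 8.68% after ICSI. The log2 difference was -3.33 (SE 0.12, limma adjusted p = 4.19e-09) after ROSI and -3.50 (SE 0.11, adjusted p = 1.16e-09) after ICSI. Uhrf1 (chromosome 17, 56303321 to 56323486, plus strand) had 41.8, 49.3 and 64.2 TPM in ROSI 2-cell embryos, against 362 and 365 TPM in ROSI zygotes. In ICSI 2-cell embryos it had 63.9, 77.0 and 65.5 TPM, against 429, 423 and 440 TPM in ICSI zygotes. It fell by 2.81 (SE 0.15) after ROSI and by 2.63 (SE 0.14) after ICSI on the log2 scale.

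Among the de novo genes, Dnmt3l (chromosome 10, 78041947 to 78063622, plus strand) had 16.1, 14.2 and 20.2 TPM in ROSI 2-cell embryos, against 84.7 and 84.1 TPM in ROSI zygotes. It had 21.9, 22.8 and 21.9 TPM in ICSI 2-cell embryos, against 85.0, 78.1 and 81.3 TPM in ICSI zygotes. Its share left at the 2-cell stage was 20% after ROSI and 27.2% after ICSI. Dnmt3a (chromosome 12, 3806007 to 3914443, plus strand) had 9.89, 11.5 and 13 TPM in ROSI 2-cell embryos and 11.9, 12.5 and 10.9 TPM in ICSI 2-cell embryos. In zygotes it had 43.1 and 40.1 TPM after ROSI and 45.0, 41.2 and 41.4 TPM after ICSI, so that 27.5% and 27.7% of the zygote means remained.
Dnmt3b (chromosome 2, 153649450 to 153687730, plus strand) fell least of the 3. It had 8.79, 10.5 and 11.7 TPM in ROSI 2-cell embryos, against 18.7 and 15.1 TPM in ROSI zygotes. It had 5.38, 9.84 and 10.1 TPM in ICSI 2-cell embryos, against 16.7, 18.7 and 18.2 TPM in ICSI zygotes. The log2 difference was -0.66 (SE 0.23, limma adjusted p = 0.0245) after ROSI and -1.04 (SE 0.20, adjusted p = 0.000905) after ICSI. The call after ROSI was lost without ROSI zygote replicate 1 (-0.52, adjusted p = 0.158), without ROSI 2-cell replicate 1 (-0.56, adjusted p = 0.0709) and after rescaling over protein-coding genes (-0.22, adjusted p = 0.357). That rescaling gave -0.57 (adjusted p = 0.018) after ICSI. A small part of the exonic bases of Dnmt3a and Dnmt3l, 0.8% and 2.2%, also lies in exons of the opposite-strand genes Dnmt3aos and Aire. The strand setting of the counting was not given in the sources used here.

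The TET genes moved in opposite directions between the stages. Tet3 (chromosome 6, 83362373 to 83459084, minus strand), the oocyte form of the enzyme family, had 49.0, 47.5 and 60.1 TPM in ROSI 2-cell embryos, against 325 and 262 TPM in ROSI zygotes. It had 74.5, 92.6 and 72.8 TPM in ICSI 2-cell embryos, against 360, 261 and 256 TPM in ICSI zygotes. The log2 difference was -2.47 (SE 0.18) after ROSI and -1.85 (SE 0.16) after ICSI. Tet1 (chromosome 10, 62804570 to 62908996, minus strand), which is prominent in embryonic stem cells, had 38.8, 38.0 and 41.7 TPM in ROSI 2-cell embryos, against 1.70 and 1.12 TPM in ROSI zygotes. In ICSI 2-cell embryos it had 25.4, 37.9 and 35.5 TPM, against 1.49, 1.12 and 0.918 TPM in ICSI zygotes. The ratio of mean TPM was 28 after ROSI and 28 after ICSI, and the log2 difference was 4.08 (SE 0.19) after ROSI and 3.95 (SE 0.17) after ICSI. With a pseudocount of 5 it was 2.80 after ROSI and 2.60 after ICSI and still passed. With Tet3 lower and Tet1 higher, Tet1 made up 44.2%, 44.5% and 41% of the sum of both in ROSI 2-cell embryos and 25.4%, 29% and 32.8% in ICSI 2-cell embryos. In zygotes that share was at most 0.521% after ROSI and 0.428% after ICSI. The shares in the 2-cell groups do not overlap, which follows from every ROSI library being higher for Tet1 and lower for Tet3. For Tet1 that gap was small, with a lowest ROSI library of 38.0 TPM and a highest ICSI library of 37.9 TPM. The shares thus add no evidence of their own, and they are given without a test because both genes enter the tests below.

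Of the protecting genes, Dppa3 (chromosome 6, 122626410 to 122630272, plus strand) changed least between the stages. It had 1621, 2317 and 2446 TPM in ROSI 2-cell embryos, against 3675 and 3936 TPM in ROSI zygotes. It had 2065, 2419 and 2515 TPM in ICSI 2-cell embryos, against 4238, 5179 and 5141 TPM in ICSI zygotes. The share of the zygote mean left was 55.9% after ROSI and 48.1% after ICSI. It fell by 0.86 (SE 0.18) after ROSI and by 1.06 (SE 0.16) after ICSI on the log2 scale, and rescaling over protein-coding genes brought the difference to -0.38 (limma adjusted p = 0.0319) and -0.52 (adjusted p = 0.00356), still lower. The annotation also holds a processed pseudogene, Dppa3-ps, and how reads shared with it were counted was not given in the sources used here.
Zfp57 (chromosome 17, 37001163 to 37010635, plus strand) had 328, 367 and 373 TPM in ROSI 2-cell embryos, against 3466 and 2863 TPM in ROSI zygotes. It had 532, 544 and 520 TPM in ICSI 2-cell embryos, against 3659, 3180 and 3238 TPM in ICSI zygotes. The share left was 11.3% after ROSI and 15.8% after ICSI.
Trim28 (chromosome 7, 12999114 to 13031035, plus strand) went the other way. It had 141, 160 and 144 TPM in ROSI 2-cell embryos, against 28.2 and 31.4 TPM in ROSI zygotes, a log2 change of 2.28 (SE 0.13, adjusted p = 5.61e-08, limma). It had 113, 151 and 126 TPM in ICSI 2-cell embryos, against 32.4, 34.0 and 35.7 TPM in ICSI zygotes, a log2 difference of 1.89 (SE 0.11, adjusted p = 8.17e-08). Zfp57 transcript per Trim28 transcript was 2.33, 2.29 and 2.60 in ROSI 2-cell embryos, against 123 and 91.2 in ROSI zygotes. It was 4.69, 3.60 and 4.14 in ICSI 2-cell embryos, against 113, 93.5 and 90.7 in ICSI zygotes.

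**Figure D2:**
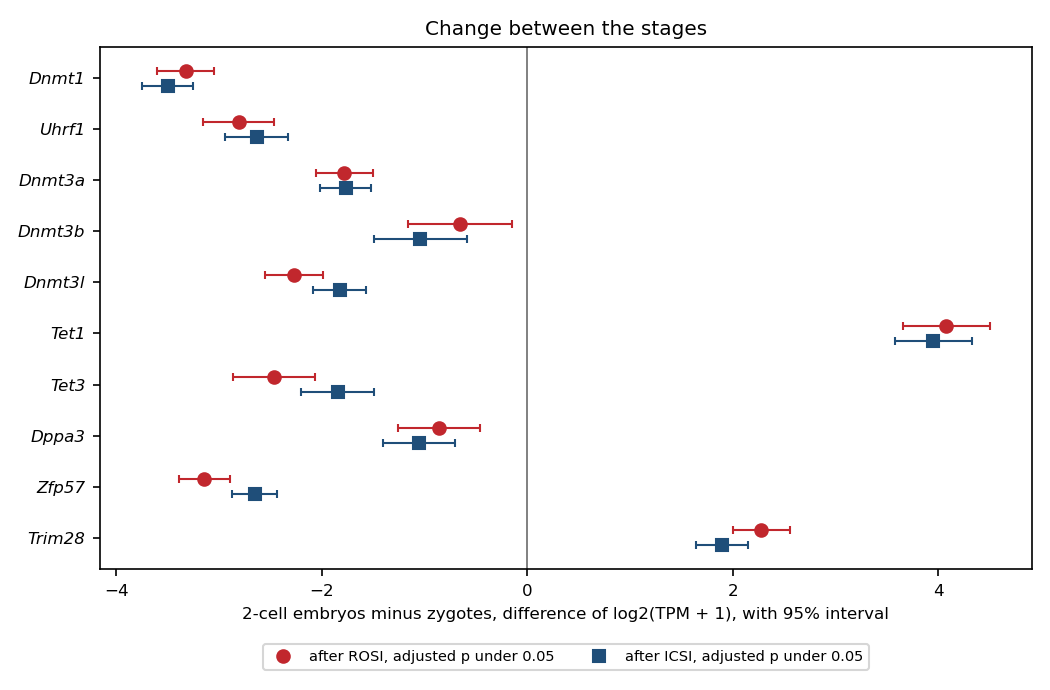
Difference of log2(TPM + 1) between 2-cell embryos and zygotes for the 10 genes, after ROSI (red circles) and after ICSI (blue squares), with 95% intervals. Tet1 and Trim28 lie to the right of 0 and the other 8 genes to the left in both, from -3.50 for Dnmt1 to 4.08 for Tet1.

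ROSI and ICSI embryos were compared within each stage to ask whether the levels of these transcripts differed. Such a difference goes with the male germ cell and the activation treatment together. In 2-cell embryos 2 of the 10 passed the test and both were lower after ROSI, namely Zfp57 and Tet3. Over all genes tested, 9.51% passed, 4.93% higher and 4.58% lower. For 4 of the 10 genes, all ROSI libraries lay on 1 side of the ICSI libraries, as they did for 27.3% of all genes. The median difference of the 10 was -0.11, beside 0.04 over all genes (log2). The other 8 genes did not pass, with log2 differences between -0.42 and 0.30.

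Zfp57 averaged 356 ± 24.1 TPM in ROSI 2-cell embryos and 532 ± 11.6 TPM in ICSI 2-cell embryos (SD, n = 3 each). The 3 ROSI libraries all lay below the 3 ICSI libraries, and the ROSI mean was 66.9% of the ICSI mean. The log2 difference was -0.58 (SE 0.10, 95% interval -0.80 to -0.36, limma adjusted p = 0.00926). It passed with each of the 11 libraries left out in turn, with adjusted p between 0.00924 and 0.0334, but not after quantile normalization (adjusted p = 0.0705) or when only the 2-cell libraries were fitted (adjusted p = 0.052).
Tet3 averaged 52.2 ± 6.89 TPM in ROSI 2-cell embryos and 80.0 ± 11 TPM in ICSI 2-cell embryos (SD, n = 3 each). Its libraries did not overlap either, and the log2 difference was -0.61 (SE 0.16, 95% interval -0.96 to -0.25, limma adjusted p = 0.0421). This call lay close to the threshold, and it held in 4 of the 11 fits with 1 library left out, whose adjusted p ran between 0.0276 and 0.124. It was lost without ROSI 2-cell replicate 1 or 2, without any 1 of the ICSI 2-cell libraries, and without ICSI zygote replicate 2 or 3. It was also lost with no filter on low values (adjusted p = 0.0846), with no variance trend (adjusted p = 0.0712) and with only the 2-cell libraries fitted (adjusted p = 0.0945). The difference itself stayed between -0.71 and -0.50 in those fits.

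Dnmt3l and Uhrf1 were lower on average after ROSI without passing. Dnmt3l averaged 16.9 ± 3.05 TPM in ROSI 2-cell embryos and 22.2 ± 0.541 TPM in ICSI 2-cell embryos (SD, n = 3 each), with no overlap. The log2 difference was -0.39 (SE 0.12, 95% interval -0.65 to -0.14, limma adjusted p = 0.0586). Uhrf1 averaged 51.8 ± 11.4 TPM in ROSI 2-cell embryos and 68.8 ± 7.14 TPM in ICSI 2-cell embryos (SD, n = 3 each), and 1 ROSI library lay within the ICSI range. The log2 difference was -0.42 (SE 0.14, 95% interval -0.73 to -0.12, limma adjusted p = 0.0817). Without ROSI 2-cell replicate 3, the highest ROSI library for both genes, Dnmt3l (adjusted p = 0.0105) and Uhrf1 (adjusted p = 0.0121) passed as well. Both also passed under median-ratio scaling, under rescaling over protein-coding genes and under quantile normalization. Over all genes, 2363, 1253 and 1758 were called lower under these scalings, beside 1005 in the values reported.

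**Figure D3:**
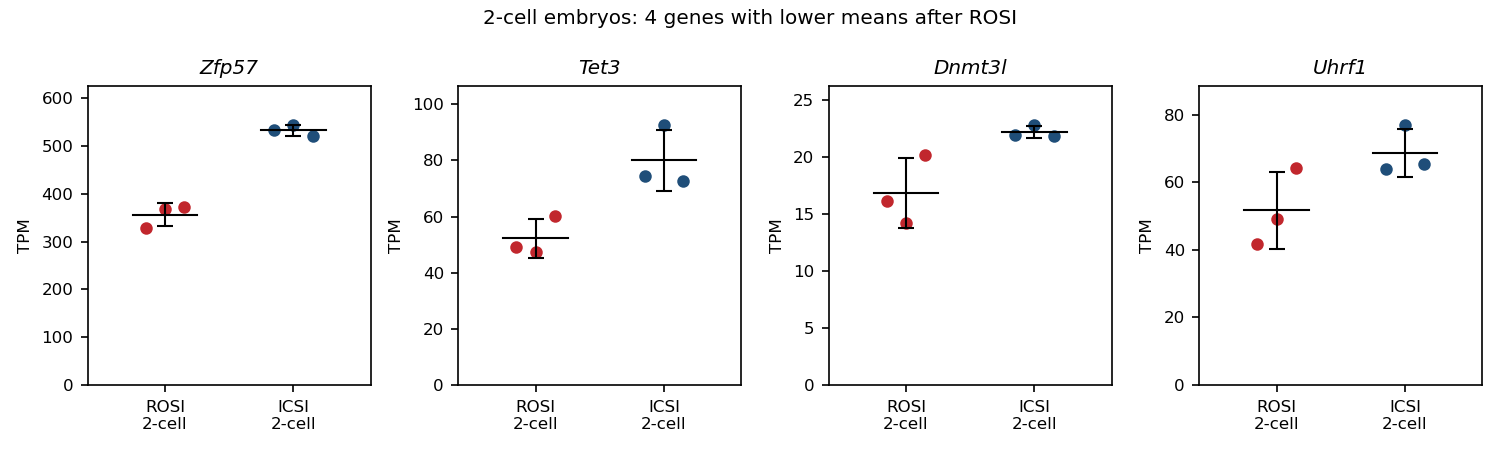
TPM of Zfp57, Tet3, Dnmt3l and Uhrf1 in ROSI and ICSI 2-cell embryos; points are libraries, horizontal lines are means and bars are 1 SD (n = 3 each). The ROSI libraries lie below the ICSI libraries for Zfp57, Tet3 and Dnmt3l, and for Uhrf1 1 ROSI library reaches the ICSI range.

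For the remaining 6 genes the intervals bound what the 2-cell libraries can show. Dnmt1 averaged 68.9 ± 7.17 TPM in ROSI 2-cell embryos and 71.9 ± 3.75 TPM in ICSI 2-cell embryos (SD, n = 3 each), and the 95% interval of its log2 difference ran from -0.31 to 0.18. The interval was -0.29 to 0.20 for Dnmt3a and -0.50 to 0.20 for Dppa3. Dnmt3b, Tet1 and Trim28 had higher means after ROSI, with log2 differences of 0.30 (SE 0.20), 0.27 (SE 0.17) and 0.20 (SE 0.11) and limma adjusted p of 0.383, 0.336 and 0.299. The Tet1 libraries did not overlap, and those of Dnmt3b and Trim28 did. Uhrf1 transcript per Dnmt1 transcript was 0.682, 0.706 and 0.85 in ROSI 2-cell embryos, and 0.945, 1.04 and 0.887 in ICSI 2-cell embryos.

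In zygotes none of the 10 genes passed the limma test, and none had an unadjusted p under 0.05. Over all genes tested, 0.146% passed (0.114% higher, 0.0319% lower), and 1392 of the 21938 genes had an unadjusted p under 0.05. The differences ran from -0.35 for Dppa3 (SE 0.18, adjusted p = 0.88) to 0.15 for Tet1 (SE 0.19), with a median of -0.09 beside -0.06 over all genes (log2). Zfp57 averaged 3165 ± 427 TPM in 2 ROSI zygote libraries and 3359 ± 262 TPM in 3 ICSI zygote libraries (SD), with a 95% interval of the log2 difference from -0.34 to 0.16. Tet3 averaged 293 ± 44.5 TPM in ROSI zygotes and 292 ± 58.5 TPM in ICSI zygotes (SD, n = 2 and 3), with an interval from -0.38 to 0.41.
Uhrf1, Dppa3 and Trim28 were lower in both ROSI zygote libraries than in all 3 ICSI zygote libraries, and such separation was seen for 26.4% of all genes. In each group 1 zygote library, replicate 1, was poor in small nuclear and nucleolar transcripts, which held 0.611% of TPM after ROSI and 0.572% after ICSI, while the others had between 1.64% and 2.58%. Tet3 and Zfp57 were highest in these 2 libraries. Within the poor libraries Zfp57 differed by -0.08 and within the others by -0.17, and Tet3 by -0.15 and 0.02 (log2, ROSI minus ICSI, too few libraries for a test).

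**Figure D4:**
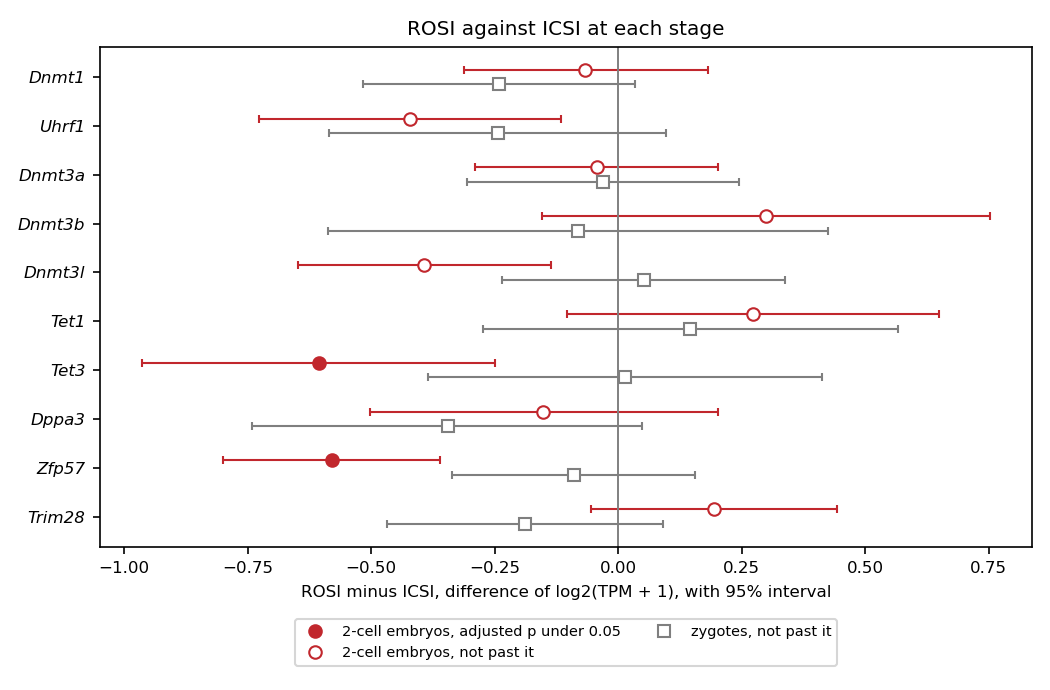
Difference of log2(TPM + 1) between ROSI and ICSI embryos for the 10 genes, in 2-cell embryos (red circles) and zygotes (grey squares), with 95% intervals; filled marks passed an adjusted p of 0.05. Only Zfp57 at -0.58 and Tet3 at -0.61 are filled, both in 2-cell embryos.

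Whether the change between the stages differed between ROSI and ICSI was tested directly, as the ROSI change minus the ICSI change. None of the 10 passed the limma test, and 4 of them had an unadjusted p under 0.05. Over all genes 0.0182% passed (0.0137% higher, 0.00456% lower), and 3303 had an unadjusted p under 0.05. The 4 were Zfp57 at -0.49 (SE 0.15, adjusted p = 0.17), Tet3 at -0.62 (SE 0.24, adjusted p = 0.267), Dnmt3l at -0.44 (SE 0.17, adjusted p = 0.267) and Trim28 at 0.38 (SE 0.17, adjusted p = 0.321). Over all genes the median was 0.10. The ROSI against ICSI differences of Zfp57 and Tet3 are thus not shown to differ between the stages. Zfp57 passed under median-ratio scaling, at -0.68 (limma adjusted p = 0.034). Under that scaling 303 genes in all passed, 61 higher and 242 lower, beside 3 higher and 1 lower in the values reported. The median over all genes was then -0.035.

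Several marker lists also differed between the 2-cell groups, where 4.93% of all genes tested were higher and 4.58% lower after ROSI. Over 9 oocyte markers, such as Zp2 and Gdf9, the summed level was 967 to 1250 TPM in ROSI 2-cell embryos and 1323 to 1343 TPM in ICSI 2-cell embryos. Of the 9, 4 were lower and none higher, and Zp3 had a higher mean after ROSI without passing. In zygotes the oocyte sum was also lower after ROSI, at 7339 to 8374 TPM against 8410 to 10020 TPM after ICSI, and none of the 9 passed. Over 8 markers of 2-cell genome activation, such as Zscan4c, the sum was 439.6 to 629.5 TPM in ROSI 2-cell embryos and 883 to 921.5 TPM in ICSI 2-cell embryos, and 6 of the 8 were lower. Over 12 spermatid markers it was 41.1 to 58.8 TPM in ROSI 2-cell embryos and 10.8 to 15.8 TPM in ICSI 2-cell embryos. Of the 11 tested, 6 were higher. In zygotes these markers summed to 93.5 to 184.4 TPM after ROSI and 27.2 to 33.6 TPM after ICSI. There too 6 of the 11 were higher, beside 0.114% of all genes. Cumulus markers summed to 46.1 to 53.6 TPM in ROSI 2-cell embryos and 30.2 to 45.4 TPM in ICSI 2-cell embryos, mostly from Amhr2, and none of the 4 tested passed. Over 11 markers of other testis cells the sum was 234.5 to 255.5 TPM in ROSI 2-cell embryos and 194.8 to 207.9 TPM in ICSI 2-cell embryos. Of the 8 tested, 1 was higher, the meiotic gene Sycp3, at 0.56 (SE 0.13, limma adjusted p = 0.0248). The short transcript Gm23935, annotated as a miRNA, which had the largest TPM in every library, took 12.71% to 23.69% of ROSI 2-cell libraries and 16.18% to 17.61% of ICSI 2-cell libraries. The part of these in the lower Zfp57 and Tet3 was not tested.

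The genes whose profile over the 11 libraries was most like that of Zfp57, by the root mean square difference of centred log2(TPM + 1) among 8724 genes, were Tmem232 (0.099), Fbxo40 (0.10) and Gyg (0.103), which encodes the glycogen primer glycogenin. For Tet3 they were Csrnp2 (0.057), Klhdc3 (0.086) and Gpr35 (0.102). This is a description over the same libraries and mostly follows the stage difference. Tmem232 averaged 10.7 TPM in ROSI 2-cell embryos and 15.8 TPM in ICSI 2-cell embryos, and Csrnp2 averaged 68.9 TPM and 107 TPM in these groups.

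Other genes of DNA methylation and imprint upkeep were listed by role under 60 symbols, of which 58 were in the table and 54 passed the filter. In 2-cell embryos 7 of the 54 were higher and 2 lower after ROSI, with a median of 0.02, beside 4.93% higher and 4.58% lower over all genes. Under median-ratio scaling the balance turned, to 7 higher and 9 lower, beside 1046 higher and 2363 lower over all genes. In zygotes none passed, beside 0.146% of all genes. For the stage change, 18 rose and 24 fell after ROSI and 16 rose and 28 fell after ICSI at the 2-cell stage, a step at which 67.9% of all genes passed after ROSI (35.6% higher, 32.3% lower) and 68.1% after ICSI (33% higher, 35% lower). None passed the test of the difference between these changes.

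Both lower genes were among those listed here as maintenance cofactors. Uhrf2, a relative of Uhrf1, had 5.57, 7.89 and 6.29 TPM in ROSI 2-cell embryos, against 10.4, 11.1 and 9.65 TPM in ICSI 2-cell embryos, lower by a log2 difference of -0.60 (SE 0.15, adjusted p = 0.0353, limma). Hells, a chromatin remodeller needed for normal methylation, had 42.6, 51.2 and 51.8 TPM in ROSI 2-cell embryos, against 58.5, 76.4 and 67.7 TPM in ICSI 2-cell embryos, a log2 difference of -0.47 (SE 0.12, adjusted p = 0.0328). The other 5 tested maintenance cofactors did not pass.
Of 13 genes for imprint binding and partners of TRIM28, 2 were higher. Zfp445, a KRAB zinc-finger protein that acts with ZFP57 at imprints, had 23.9, 29.4 and 30.3 TPM in ROSI 2-cell embryos, against 15.3, 18.9 and 20.6 TPM in ICSI 2-cell embryos, which is 0.59 higher on the log2 scale (SE 0.13, adjusted p = 0.0245, limma). Smchd1, an SMC-family repressor of the inactive X and of imprinted clusters, differed by 0.46 (SE 0.10, adjusted p = 0.0215). Zfp57 transcript per Zfp445 transcript, a ratio chosen after the values were seen, was 13.7, 12.5 and 12.3 in ROSI 2-cell embryos and 34.9, 28.7 and 25.2 in ICSI 2-cell embryos.

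Of the 16 genes of oxidation and base excision, Parp1, which senses DNA breaks, was higher by 0.42 (SE 0.10, limma adjusted p = 0.0266) and Lig3, which seals them with XRCC1, also by 0.42 (SE 0.10, adjusted p = 0.0314). Mbd1, a reader of methylated CpG sites, had 5.62, 8.45 and 7.36 TPM in ROSI 2-cell embryos, against 3.44, 3.01 and 2.64 TPM in ICSI 2-cell embryos, a log2 difference of 1.01 (SE 0.16, adjusted p = 0.0074). It was the only 1 of 6 tested readers to pass. In methyl donor supply, Mthfd1 of the folate cycle differed by 0.82 (SE 0.14, limma adjusted p = 0.00788). Its values were 37.8, 26.6 and 30.5 TPM in ROSI 2-cell embryos, against 15.7, 17.6 and 18.7 TPM in ICSI 2-cell embryos. Ahcy, which clears S-adenosylhomocysteine, differed by 0.55 (SE 0.15, adjusted p = 0.0495) at levels of 0.847 to 2.24 TPM. Its difference depended on the pseudocount and was 0.87 with 0.1 but 0.21 (adjusted p = 0.197) with 5. With a pseudocount of 5, Mbd1 differed by 0.59 and still passed. Only Mbd1 and Mthfd1 of these 9 passed with each of the 11 libraries left out in turn. Smchd1 passed in 9 of the 11 fits, Zfp445 and Parp1 in 7, Hells and Lig3 in 5, Uhrf2 in 4 and Ahcy in 1.

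**Figure D5:**
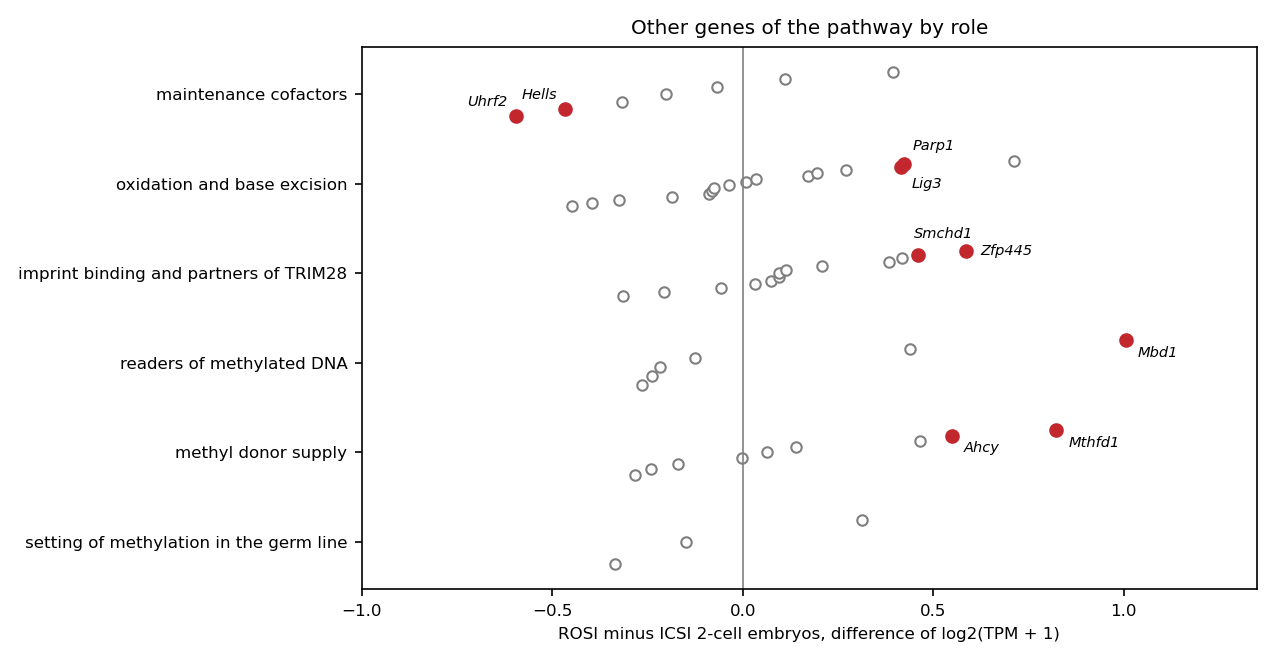
Difference of log2(TPM + 1) between ROSI and ICSI 2-cell embryos for 54 other genes of the pathway, in rows by role; each circle is a gene and filled circles passed an adjusted p of 0.05. Uhrf2 and Hells are filled on the left, and 7 genes from Lig3 at 0.42 to Mbd1 at 1.01 on the right.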

How the data were processed

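The input was the authors' deposited table of TPM, 1 column for each of 11 libraries and 49585 genes, each column summing to 1000000. Per the labels' protocols, 1 ng of total RNA (ISOGEN II extraction) entered a stranded SMART-seq library. Per the submitters' processing notes, fastp, Bowtie2, STAR 2.7.4a and featureCounts were used with build mm10; roles, annotation, strand setting and filters were not given in the sources used here.

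The tests were run with limma 3.58.1 in R 4.3.3 on log2(TPM + 1), with 4 group means, a trended prior variance and all 11 libraries, over the 21938 genes reaching 1 TPM in 2 or more libraries, two-sided, at a Benjamini-Hochberg adjusted p of 0.05. The fit was tested on simulated data. The 10 genes and the gene lists were chosen with earlier results of these data known. The ratios and shares between transcripts were not among the planned results and are given without a test. All 10 genes were named; of the other pathway genes, those passing in a ROSI against ICSI comparison were named. For the 2 of the 10 genes with the smallest p in 2-cell embryos, the 3 most similar genes were named. Reads were recovered from TPM times exon length (GENCODE M21), and 85.07% to 86.66% of values lay within 0.01 of a whole number. Python 3.11.15 drew the figures. The alternatives changed the pseudocount, filter, scaling, variance trend, weights, replicate block, groups fitted and each library; the same were added for the other pathway genes after the data were seen.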

Additional observations from a re-analysis of the deposited data

How the results depend on the processing

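In 2-cell embryos, the count of the 10 genes passing, 2 in the values reported, was 1 without a filter, 1 without the variance trend, 4 under median-ratio scaling, 4 after rescaling over protein-coding genes, 0 with only the 2-cell libraries fitted (where 85 genes in all passed and 4668 had an unadjusted p under 0.05), and 1 to 4 with 1 library left out. With the replicate number as a block it was 1, since Tet3 had limma adjusted p = 0.0625 and Zfp57 0.0168. The number of all genes passing moved as well, from 2087 in the values reported. It was 3409 under median-ratio scaling, 3009 after rescaling over protein-coding genes and 2197 without ROSI 2-cell replicate 3, where 4 of the 10 genes passed. It was 1366 without a filter, 1723 without the trend and 1737 with the block. Deviations from group means in ROSI and ICSI zygotes correlated at 0.33 between replicates 1 and at 0.215 between replicates 2. ROSI zygote replicate 2 and ICSI zygote replicate 3 also correlated, at 0.206. Centred on their mean, the 2 ROSI zygote libraries deviate as mirror images. The values for ROSI zygote replicate 2 are thus those for replicate 1 with the sign turned, and these correlations are not separate agreements. For all other pairs of groups, samples of the same number correlated at -0.043 to 0.057. Whether same-numbered zygote libraries share a batch was not tested and cannot be told from these values. The count of the 10 genes for the stage-change difference was 1 under median-ratio scaling, where 303 genes in all passed, beside 4 in the values reported. The count of other pathway genes, 9, was 16 (7 higher, 9 lower) under median-ratio scaling, 5 without the trend, 0 with only the 2-cell libraries, and 3 to 9 with 1 library left out; for the stage-change difference it was 1 with a 5 TPM filter and 1 with array weights.

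Differences that changed sign had not passed the test. In zygotes these were Dnmt3a at 0.049 (median-ratio), 0.063 (protein-coding) and 0.074 (quantile), and -0.082 to 0.02 with 1 library left out. They were also Dnmt3b at 0.008 (protein-coding) and 0.013 (quantile), and -0.226 to 0.061 with 1 left out, Zfp57 at 0.006 and 0.115 under the same scalings and -0.228 to 0.048, Tet3 at -0.001 under the block and -0.141 to 0.173, and Tet1 at -0.027 to 0.32. In 2-cell embryos, without ROSI replicate 1, they were Dnmt1 at 0.015 (lowest with 1 left out -0.134), Dnmt3a at 0.049 (lowest -0.13) and Dppa3 at 0.034 (lowest -0.262). For the stage-change difference they were Dnmt1 at -0.013 and Tet1 at -0.023 under median-ratio scaling, Tet1 at -0.042 with array weights and -0.046 to 0.3 with 1 left out, and Dnmt3a at -0.099 to 0.08. The cause was not tested. Of 440 stage differences of the 10 genes under alternatives, 437 kept direction and call, and the other 3 were those of Dnmt3b after ROSI.

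Rescaling over protein-coding genes moved the median of all genes to 0.56 after ROSI and 0.39 after ICSI at the 2-cell stage against zygotes, and raised the higher share of called genes to 62.5% and 60.9%, beside 52.4% and 48.5% as reported. Median-ratio scaling gave 30.7% higher among called genes in ROSI against ICSI 2-cell embryos, beside 51.8%. The 8.48 M (1e6) reads of ICSI 2-cell replicate 1 and the 2 ROSI zygote libraries limit the precision.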
